A study of Mus musculus with 13 samples.

Results

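Synaptoporin (Synpr) and 4 of its relatives, synaptophysin (Syp), synaptophysin-like protein (Sypl), synaptogyrin 1 (Syngr1) and synaptogyrin 3 (Syngr3), were followed across excitatory neurons of the mouse claustrum. These 5 genes were taken by name from the synaptophysin and synaptogyrin family, with earlier results of these data known but with no threshold on a measured value, and each has its own row in both deposited count tables, which together list 23427 genes. They are not the whole family, since Syngr2 is also listed in both tables, and Sypl2 and Syngr4 in 1 of them. The data are single-cell RNA-seq of hand-picked cells from the claustrum of 4 mature male wild-type C57BL/6 (B6) mice, with cells pooled across brain slices and sequenced in 13 plates. In 1 mouse (the blindly sampled mouse), a retrograde virus, rAAV2-retro-CAG-GFP, had been injected into the anterior cingulate cortex to guide the dissection, and cells were picked without regard to GFP. In the other 3 mice (projection mice 1, 2 and 3), red retrobeads had been injected into the retrosplenial cortex (RSC) and green retrobeads into the lateral entorhinal cortex (LEC), and some cells were picked for their label, so that the numbers of labeled cells reflect the picking. Every mouse thus carried a tracer, and none was left uninjected.

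The synaptophysin family consists of small proteins that cross the vesicle membrane 4 times. Synaptophysin is a major integral protein of synaptic vesicles and a binding partner of synaptobrevin, and synaptoporin, also called synaptophysin 2, is a close relative found in selected groups of neurons such as dentate granule cells. Synaptogyrins 1 and 3 are vesicle proteins of neurons, whereas Sypl is the more widely expressed relative of synaptophysin outside synaptic vesicles. In the claustrum, Synpr is known as a marker of the neurons that form its core.

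A cell was kept when it had at least 1 count of Snap25, a neuronal gene, and at least 1 count of Slc17a7, the vesicular glutamate transporter of cortical excitatory neurons. Of 1112 cells, 1011 were kept, of which the blindly sampled mouse gave 238 and projection mice 1, 2 and 3 gave 224, 220 and 329. Of the kept cells of the projection mice, 247 were RSC-labeled, 286 LEC-labeled and 240 unlabeled. Kept cells of the blindly sampled mouse had a median total of 26023 counts, and those of the projection mice had medians of 138535 to 154262 counts. The blindly sampled mouse was sequenced on another flow cell with another read length, so that mouse, flow cell and read length cannot be told apart. Each plate of the projection mice held 1 mouse and 1 label, except plate 12, which held RSC-labeled and LEC-labeled cells of projection mouse 3. Outside plate 12, plate and label therefore cannot be told apart. Plates drew on 1 set of cell barcodes, and 343 of the 368 barcodes seen occurred in more than 1 plate. Levels are given in CPM, the count of a gene scaled to 1000000 counts of all genes, either per cell or for the summed counts of the kept cells of a mouse and group, and mice, not cells, are the replicates.

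The regions upstream of the annotated starts are shown here because the 2 RefSeq starts of Synpr differ in sequence. The 250 bases before each start are given 5′ to 3′, from the GRCm38.p6 assembly, with every CG pair in capitals. RefSeq windows were found for 4 of the 5 members, and the windows of Syngr1, which was lower in cells with Synpr, and of Syp, which was not found to differ, stand beside those of Synpr.
Synpr, first start, chr14:13284530-13284779, plus strand: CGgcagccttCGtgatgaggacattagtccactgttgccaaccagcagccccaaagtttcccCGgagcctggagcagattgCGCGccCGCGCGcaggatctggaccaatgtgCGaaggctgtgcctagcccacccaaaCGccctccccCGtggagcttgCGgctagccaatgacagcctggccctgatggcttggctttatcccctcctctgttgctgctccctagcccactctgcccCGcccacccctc
Synpr, second start, chr14:13453708-13453957, plus strand: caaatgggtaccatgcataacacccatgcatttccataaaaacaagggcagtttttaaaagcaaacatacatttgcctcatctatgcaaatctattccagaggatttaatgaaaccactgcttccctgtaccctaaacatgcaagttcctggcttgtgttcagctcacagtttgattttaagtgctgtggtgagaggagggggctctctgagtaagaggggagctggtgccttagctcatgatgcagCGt
Syngr1, chr15:80091084-80091333, plus strand: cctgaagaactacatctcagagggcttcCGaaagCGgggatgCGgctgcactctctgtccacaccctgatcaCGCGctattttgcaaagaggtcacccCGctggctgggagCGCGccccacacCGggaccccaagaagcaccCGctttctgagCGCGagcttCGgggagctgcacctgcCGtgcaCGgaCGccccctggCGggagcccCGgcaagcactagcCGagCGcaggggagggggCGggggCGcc
Syp, chrX:7638330-7638579, plus strand: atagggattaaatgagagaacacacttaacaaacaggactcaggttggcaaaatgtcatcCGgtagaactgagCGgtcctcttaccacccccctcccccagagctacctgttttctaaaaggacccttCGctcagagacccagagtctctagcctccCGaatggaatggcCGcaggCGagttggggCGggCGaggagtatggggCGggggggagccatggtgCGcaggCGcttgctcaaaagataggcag
The first Synpr window held 13 CG pairs and the second held 1, against a median of 6 over all 32851 promoter windows of this length. The Syngr1 window held 22 CG pairs and the Syp window held 11. Sypl also has 2 starts in RefSeq, whose windows held 20 and 23 CG pairs and are not printed. The letters GGGCGG or, on the other strand, CCGCCC, occurred in the first Synpr window, in the Syngr1 window and in the Syp window but not in the second Synpr window, and 32.7% of all windows held them. The counts do not separate transcripts by their start, so which of the 2 Synpr starts was used was not measured.

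Synpr was either abundant or nearly absent in a cell. Of the 1011 kept cells, 397 had no Synpr count, 146 had a level above 0 and under 30 CPM, 17 had 30 to under 100 CPM, 16 had 100 to under 300 CPM, 50 had 300 to under 1000 CPM and 385 had 1000 CPM or more. Thus 3.26% of cells lay between 30 and 300 CPM, and this intermediate share was 5.46% in the blindly sampled mouse and 2.68%, 3.18% and 2.13% in projection mice 1, 2 and 3. A cell was called Synpr-high at 100 CPM or more and Synpr-low otherwise, a limit set in this sparse range. The 5 cells just under the limit had 66.9 to 95.3 CPM and the 5 just over it had 104 to 139 CPM. By this limit, 451 cells were Synpr-high and 560 were Synpr-low.

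Levels among the Synpr-high cells were of the same order in every mouse and lowest in projection mouse 2. The median level of a Synpr-high cell was 1652 CPM in the blindly sampled mouse and 1748, 1380 and 1717 CPM in projection mice 1, 2 and 3, with lower and upper quartiles of 1263 and 2151 CPM over all Synpr-high cells. The highest level in any cell was 3589 CPM. The SD of log2(CPM + 1) over cells, averaged over mice, was 4.91 for Synpr, which ranked 1 of the 8926 genes that had a count in at least 10% of the kept cells of each mouse. The same SD was 3.24 for Sypl (rank 820), 1.99 for Syngr3 (rank 7785), 1.63 for Syp (rank 8410) and 1.62 for Syngr1 (rank 8421). Synpr was therefore the member that varied most between cells on this scale, and 3 of the other 4 were among the genes that varied least. This SD also rises where a gene is missing from part of the cells, as Synpr and Sypl were, so the ranks partly reflect that share.

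**Figure D1:**
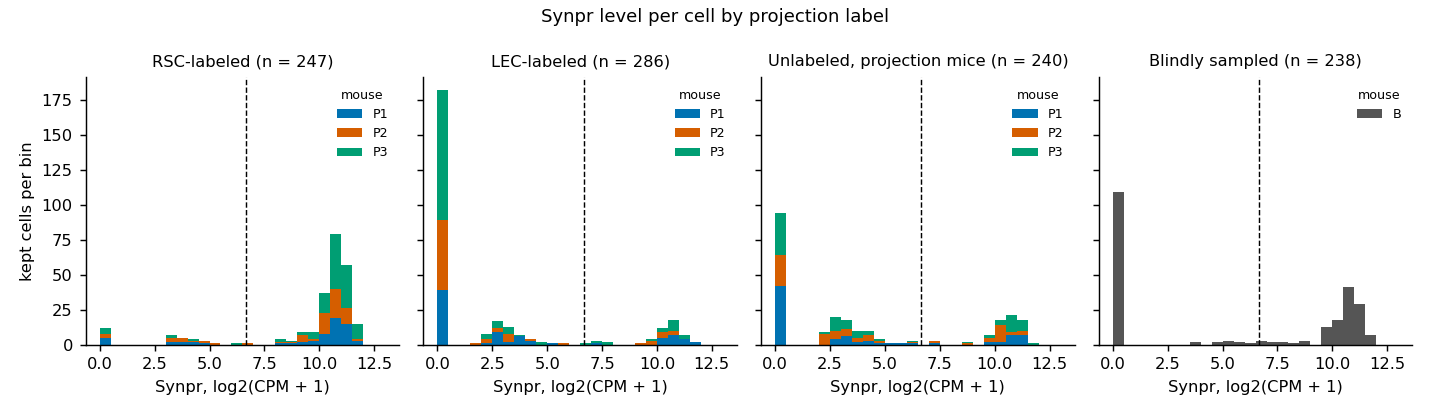
Number of kept cells by Synpr level, log2(CPM + 1) in bins of 0.5, for RSC-labeled (n = 247), LEC-labeled (n = 286) and unlabeled (n = 240) cells of the projection mice and for the blindly sampled mouse (n = 238), with bars stacked by mouse (B for the blindly sampled mouse, P1 to P3 for the projection mice) and a dashed line at 100 CPM. Each panel has a group of cells at or near 0 and a group around 1000 CPM or more, with 3.26% of all kept cells between 30 and 300 CPM.

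Low levels of Synpr in Synpr-low cells rested on few counts. In the blindly sampled mouse, 109 of 121 Synpr-low cells had no count, 7 had 1 and the rest had fewer than 10. In the projection mice, which were sequenced more deeply, 288 of 439 Synpr-low cells had no count, 93 had 1 and 3 had 10 or more. When every cell was thinned to 20000 counts, the classes were set anew on the thinned counts. There, the limit of 100 CPM was 2 counts, so a Synpr-low cell could hold at most 1. A count was found in 8.64% of these cells in the blindly sampled mouse and in 5.51%, 9.84% and 8.62% in projection mice 1, 2 and 3. The 84 shallower cells, 67 of them from the blindly sampled mouse, were left out. Without thinning, with the classes and cells of the main comparison, the shares were 9.92%, 35.8%, 41.9% and 27.8%. The shares with and without thinning are thus of different classes and cells, and their gap does not measure depth alone. For comparison, the 27 cells removed for lack of Snap25 had a median total of 1640 counts, and 6 of them had a Synpr count. These low counts differed between plates. They occurred in 58.3% to 76.9% of the Synpr-low cells of the 3 RSC plates, in 31.1% to 56.9% of those of the 3 unlabeled plates and in 3.9% to 36.1% of those of the 3 LEC plates. In projection mouse 3, the RSC plate with 96.2% Synpr-high cells had a Synpr count in 2 of its 3 Synpr-low cells, whereas the LEC plate with 10.5% Synpr-high cells had one in 3 of 77. Over the projection mice, the summed Synpr level of Synpr-low cells was 9.78 to 14.9 CPM in RSC-labeled, 5.19 to 6.96 CPM in unlabeled and 1.62 to 4.06 CPM in LEC-labeled cells. Counts shared between the cells of a plate were not tested as their source, and these levels are not read as expression.

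Synpr-high cells made up most RSC-labeled cells and few LEC-labeled cells in every projection mouse. Of the RSC-labeled cells, 52 of 64 (81.2%, exact 95% Clopper-Pearson interval 69.5% to 89.9%), 57 of 70 (81.4%, 70.3% to 89.7%) and 105 of 113 (92.9%, 86.5% to 96.9%) were Synpr-high in mice 1, 2 and 3. Of the LEC-labeled cells, 19 of 80 (23.8%, 14.9% to 34.6%), 11 of 76 (14.5%, 7.45% to 24.4%) and 20 of 130 (15.4%, 9.66% to 22.8%) were Synpr-high. The mean share was 85.2% ± 6.69 for RSC and 17.9% ± 5.11 for LEC (SD, n = 3 mice), a difference of 67.3 percentage points, and the shares of the labels did not overlap. The exact two-sided permutation test over 3 against 3 values gave p = 0.1, the smallest p that this unpaired test allows. Both labels came from the same 3 mice, and the test does not use that pairing. Among unlabeled cells the share was 23.8%, 31.1% and 32.6% in mice 1, 2 and 3, and in the blindly sampled mouse it was 49.2% (42.6% to 55.7%). Within plate 12 alone, 29 of 34 RSC-labeled cells and 11 of 44 LEC-labeled cells were Synpr-high. Intervals cover counting error only.

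**Figure D2:**
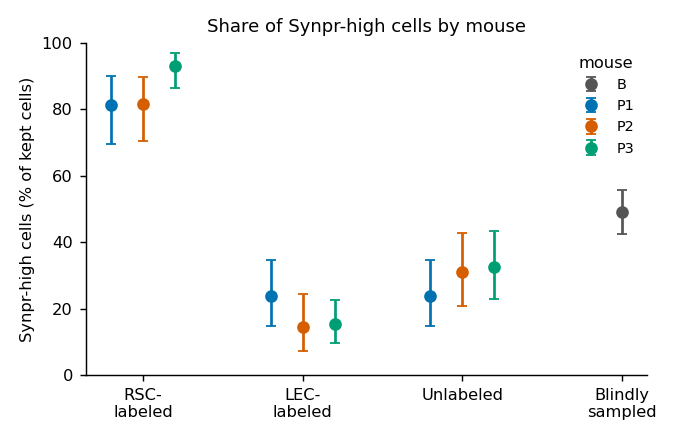
Share of Synpr-high cells among kept cells (%), by projection label and mouse, with exact 95% Clopper-Pearson intervals as bars. The 3 RSC points lie between 81.2% and 92.9%, above the 3 LEC points at 14.5% to 23.8%, and the blindly sampled mouse is at 49.2%.

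The summed counts gave the same order for Synpr. Its level was 1698, 1321 and 1877 CPM in the RSC-labeled cells of projection mice 1, 2 and 3 and 593, 221 and 236 CPM in their LEC-labeled cells. The 2 labels did not overlap. The difference was 2.22 on the log2 scale (SE 0.34, adjusted p = 0.00495 by the quasi-likelihood test of edgeR, Benjamini-Hochberg adjusted over 13976 genes), where 3.95% of all genes tested were called, 1.89% higher and 2.06% lower in RSC-labeled cells. With only 2 mice left the adjusted p was 0.0785 without mouse 2 and 0.109 without mouse 3, with log2 differences of 2.11 and 1.89. Unlabeled cells lay between the labels on average, at 470, 474 and 676 CPM, but the unlabeled level of mouse 1 was below its LEC level.

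The groups of cells followed from Synpr were close to the clusters of cells formed without the family. Cells were clustered in Seurat with the physin family genes left out, and the 3 clusters were numbered by markers, Cluster 1 by core markers (Gnb4, Lxn, Gfra1, Nr4a2, Slc17a6), Cluster 2 by shell markers (Slc30a3, Nnat, Spon1, Col6a1) and Cluster 3 by markers of deep cortical neurons (Ctgf, Sla, Foxp2, Rprm, Tle4, Syt6). Cluster 1 held 432 of the 451 Synpr-high cells, and 17 and 2 of them fell into Clusters 2 and 3. Of the 560 Synpr-low cells, 445 belonged to Cluster 2, 112 to Cluster 3 and 3 to Cluster 1. The small groups of cells whose Synpr class went against their label fell into the cluster of their Synpr class. Of the 50 LEC-labeled Synpr-high cells 45 were in Cluster 1, and of the 33 RSC-labeled Synpr-low cells 27 were in Cluster 2 and 5 in Cluster 3. A comparison of Synpr-high with Synpr-low cells is therefore largely one of core-like with shell-like and deep cortex-like cells, and the 2 cannot be told apart here.

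The comparison of the Synpr classes asked whether the other members were higher where Synpr was low. Of the 4 other members, Syngr1 was higher in Synpr-low cells, Syngr3 was lower in Synpr-low cells, and Syp and Sypl passed the threshold in neither direction. Over all genes, 1193 of 13628 were called (8.75%), 617 higher (4.53%) and 576 lower (4.23%) in Synpr-high cells, and with the mouse as a block the count was 1993. The median log2 difference of the 4 members, high against low, was 0.11, against -0.00 over all genes tested. Synpr itself set the classes and was not tested between them.

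Syp, the founding member of the family, was not found to differ between the classes. Its level in the Synpr-high cells was 60.6 CPM in the blindly sampled mouse and 209.5, 274 and 196.5 CPM in projection mice 1, 2 and 3, and in the Synpr-low cells 62.4, 231, 232 and 203 CPM. It was higher in Synpr-low cells in 3 of 4 mice and lower in mouse 2, and the classes overlapped. The log2 difference was 0.02 (95% interval -1.002 to 1.05, adjusted p = 0.993 by edgeR). The wide interval came with the level of the blindly sampled mouse, and with the mouse as a block it was -0.20 to 0.20. Syp was found in nearly every cell of the projection mice, with a count in 98.2%, 98.2% and 99.7% of kept cells, and in 67.6% of those of the blindly sampled mouse. The level of the blindly sampled mouse against the mean of the projection mice was -1.97 on the log2 scale for Syp, against -0.02 for Synpr, 0.35 for Sypl, -0.08 for Syngr1 and -0.06 for Syngr3. Among 7762 genes with at least 10 CPM in every mouse, 9 were lower in that ratio than Syp. An antisense gene, Gm14703, overlaps an exon of Syp on the other strand in GENCODE M21, and the use of strand is not given in the sources used here, so reads of the pair cannot be told apart.

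Sypl also did not differ beyond the spread between mice. Its level in Synpr-high cells was 74.4, 62.4, 52.9 and 45.0 CPM in the blindly sampled mouse and projection mice 1, 2 and 3, and in Synpr-low cells 63.5, 49.9, 48.6 and 42.8 CPM. It was higher in the Synpr-high cells of each of the 4 mice, by 1.05 to 1.25 times, while the ranges of the classes overlapped. The log2 difference was 0.20 (95% interval -0.22 to 0.62, adjusted p = 0.685 by edgeR), and -0.07 to 0.45 was the interval with the mouse as a block. Unlike Syp, Sypl was missing from many cells. It had a count in 49.2% of kept cells of the blindly sampled mouse and in 49.2% to 53.2% of those of each projection mouse. Of the 773 kept cells of the projection mice, 382 had no Sypl count while 232 had 10 or more, with a median of 21 counts among the latter. Counts are taken as reads, of which several can come from 1 molecule, so the distribution of Sypl over cells says little about expression in a single cell.

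Syngr1 was higher in Synpr-low cells in every mouse. Its level was 210.5 CPM in the Synpr-high and 335 CPM in the Synpr-low cells of the blindly sampled mouse, 218.6 and 351 CPM in projection mouse 1, 226 and 300.4 CPM in mouse 2 and 214 and 287 CPM in mouse 3. The lowest Synpr-low level was above the highest Synpr-high level, and the ratio of low to high was 1.33 to 1.61. The mean was 217 ± 6.78 CPM in Synpr-high and 318 ± 29.8 CPM in Synpr-low cells (SD, n = 4 mice), so that the spread between mice was smaller among Synpr-high cells. The log2 difference, high against low, was -0.55 (SE 0.10, adjusted p = 0.0059 by edgeR). Without projection mouse 1 the adjusted p was 0.0749, with a log2 difference of -0.50. Syngr1 was found in 97.3% of Synpr-high and 97.7% of Synpr-low cells, and its median level per cell was 193 and 294 CPM. With a count in nearly every cell, these shares could hardly differ. In the thinned cells, the shares in Synpr-high and Synpr-low cells were 91.1% and 98.8% in the blindly sampled mouse. They were 92.2% and 97.6% in projection mouse 1, 90.0% and 99.2% in mouse 2 and 90.2% and 89.7% in mouse 3. After thinning, the share was thus also lower in Synpr-high cells, except in mouse 3.

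Syngr3 went the other way. Its level was 733 CPM in the Synpr-high and 643 CPM in the Synpr-low cells of the blindly sampled mouse, 858 and 517 CPM in projection mouse 1, 797 and 585 CPM in mouse 2 and 782 and 489 CPM in mouse 3. It was higher in Synpr-high cells in 4 of 4 mice, by 1.14 to 1.66 times, and the 2 ranges did not overlap. The mean was 792 ± 51.5 CPM in Synpr-high and 558 ± 69.2 CPM in Synpr-low cells (SD, n = 4 mice), and the log2 difference was 0.51 (SE 0.10, adjusted p = 0.0129 by edgeR). When projection mouse 1, 2 or 3 was left out, the log2 differences were 0.43, 0.52 and 0.45 and the adjusted p values 0.144, 0.0798 and 0.115, so the call rested on all 3. Syngr3 had a count in 99.6% of Synpr-high and 94.1% of Synpr-low cells. Because the 2 synaptogyrins moved in opposite directions, the share of Syngr1 in the counts of both was 20.3% to 22.3% in the Synpr-high and 33.9% to 40.4% in the Synpr-low cells of the 4 mice.

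**Figure D3:**
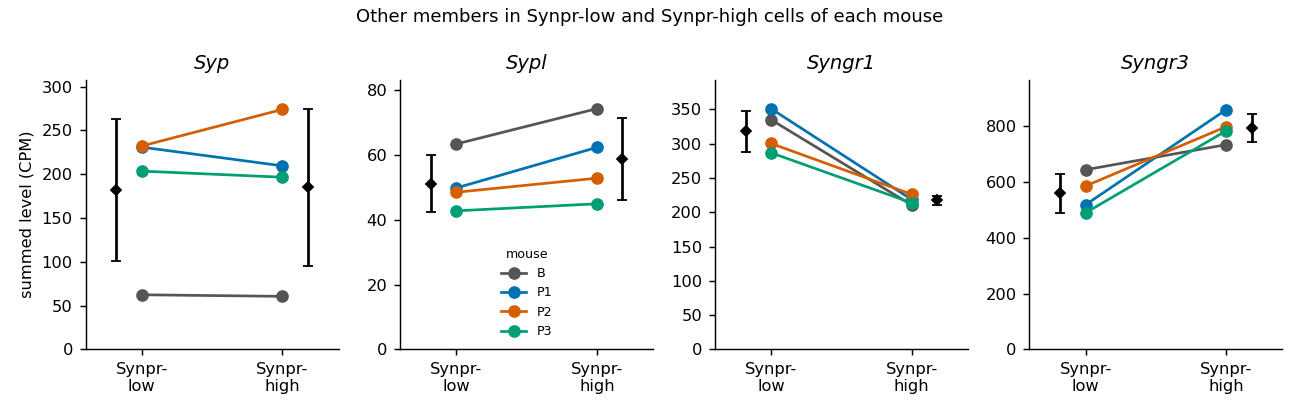
Summed level (CPM) of Syp, Sypl, Syngr1 and Syngr3 in the Synpr-low and Synpr-high cells of each mouse, with lines joining the classes of a mouse and black diamonds for the mean ± SD over 4 mice. Syngr1 falls from 318 to 217 CPM and Syngr3 rises from 558 to 792 CPM on average from Synpr-low to Synpr-high cells, and the blindly sampled mouse (B) is at 60.6 to 62.4 CPM for Syp.

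The 4 other members together were not higher in Synpr-low cells in the projection mice. Their summed level was 1078 CPM in Synpr-high and 1104 CPM in Synpr-low cells of the blindly sampled mouse. It was 1348 and 1149 CPM in projection mouse 1, 1350 and 1166 CPM in mouse 2 and 1238 and 1022 CPM in mouse 3. The sum, which is not scaled by gene length, was thus higher in Synpr-high cells in 3 of 4 mice, and the mean difference was 143 ± 113 CPM (SD, n = 4 mice). Syngr3 was the largest part of this sum in both classes of every mouse, and the direction rested on it. Without Syngr3, the sum of Syp, Sypl and Syngr1 was higher in the Synpr-low cells of each mouse. Within a class, the level of Synpr was at most weakly related to that of the other members. Over the cells of each mouse, the mean Pearson correlation of log2(CPM + 1) with Synpr among Synpr-high cells was 0.08 for Syp, 0.10 for Sypl, -0.04 for Syngr1 and 0.18 for Syngr3, and among Synpr-low cells it lay between -0.00 and 0.12. For Syngr3 among Synpr-high cells it was -0.0002 in the blindly sampled mouse and 0.30, 0.18 and 0.22 in projection mice 1, 2 and 3. The values of Syp, Sypl and Syngr1 among Synpr-high cells changed sign between mice. All these correlations are over cells that share a library, and low counts weaken them.

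Of the markers of other cell types, those of oligodendrocytes moved with the Synpr classes. The summed level of Mbp, Mog and Mobp was 23.4 CPM in the Synpr-high and 48.8 CPM in the Synpr-low cells of the blindly sampled mouse, 142 and 263 CPM in projection mouse 1, 33.8 and 259 CPM in mouse 2 and 38.7 and 97.3 CPM in mouse 3, so it was higher in the Synpr-low cells of each of the 4 mice. In the same mice Syngr1 was higher and Syngr3 lower in Synpr-low cells. When cells with 100 CPM or more of these 3 markers were left out, the log2 difference of Syngr1, high against low, was -0.59 (adjusted p = 0.00392 by edgeR) and that of Syngr3 was 0.42 (adjusted p = 0.0443), nearer to the threshold than with all cells. That of Sypl was then 0.40 (95% interval -0.12 to 0.93, adjusted p = 0.426), against 0.20 with all cells. The summed inhibitory markers (Gad1, Gad2, Slc32a1) reached 35.4 CPM in the Synpr-high and 33.2 CPM in the Synpr-low cells of a mouse and were at 0 in both classes of the blindly sampled mouse, and the 4 astrocyte markers and the 4 microglial markers stayed at or under 5.82 CPM. Of 3 endothelial markers 2 were listed, with at most 0.990 CPM. Without the cells that had a Gad1 or Gad2 count, Syngr1 and Syngr3 had log2 differences of -0.55 and 0.49, and both passed the threshold. The median total of Synpr-high and Synpr-low cells was 25592 and 27673 counts in the blindly sampled mouse, 193194 and 136773 in projection mouse 1, 127692 and 154768 in mouse 2 and 167352 and 145953 in mouse 3, so the deeper class differed between mice.

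The synaptogyrins were compared in the same way within each projection label. Within the RSC-labeled cells, Syngr1 had 230, 197 and 212 CPM in the Synpr-high and 355, 261 and 378 CPM in the Synpr-low cells of projection mice 1, 2 and 3. Within the LEC-labeled cells it had 212, 207 and 189 CPM in the Synpr-high and 391, 308 and 282 CPM in the Synpr-low cells. The classes did not overlap in either label, and the log2 difference, high against low, was -0.64 (SE 0.16, adjusted p = 0.0388) in RSC-labeled and -0.69 (SE 0.16, adjusted p = 0.0260) in LEC-labeled cells by edgeR. Of all genes, 2.79% were called in RSC-labeled cells (1.84% higher and 0.954% lower in Synpr-high cells) and 2.58% in LEC-labeled cells (1.64% higher and 0.939% lower). For Syngr1 no call was made once any 1 mouse was left out, with adjusted p between 0.0913 and 0.342 in RSC-labeled and between 0.13 and 0.265 in LEC-labeled cells. In the RSC-labeled cells the call was also lost with no filter on low counts (adjusted p = 0.0902) and with a Synpr limit of 300 CPM (adjusted p = 0.0751).

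Syngr3 was higher in the Synpr-high cells of both labels. Its level was 868, 765 and 803 CPM in Synpr-high and 622, 507 and 431 CPM in Synpr-low RSC-labeled cells of mice 1, 2 and 3. In LEC-labeled cells it was 921, 779 and 762 CPM in Synpr-high and 459, 462 and 440 CPM in Synpr-low cells. The log2 difference was 0.64 (SE 0.13, adjusted p = 0.0115) in RSC-labeled and 0.86 (SE 0.13, adjusted p = 0.000878) in LEC-labeled cells by edgeR. In RSC-labeled cells the adjusted p was 0.0855 without mouse 2 and 0.201 without mouse 3. The Synpr-low RSC-labeled sums held 12, 13 and 8 cells of mice 1, 2 and 3, and the Synpr-high LEC-labeled sums 19, 11 and 20 cells. Neither Syp nor Sypl passed the threshold within a label. Their log2 differences were -0.27 and -0.33 in RSC-labeled and 0.05 and 0.24 in LEC-labeled cells.

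The change with Synpr class was not found to differ between RSC-labeled and LEC-labeled cells. The difference of the class differences, RSC minus LEC, was 0.05 for Syngr1 (95% interval -0.43 to 0.53), -0.21 for Syngr3 (-0.60 to 0.18), -0.33 for Syp (-0.94 to 0.28) and -0.57 for Sypl (-1.64 to 0.50) on the log2 scale. None of the 4 was called by edgeR's quasi-likelihood test, where 7 of 13212 genes were (0.053%, with 0.0303% higher and 0.0227% lower), and the median over all genes was 0.12. The intervals include differences as large as these bounds. Unlabeled cells were not part of these contrasts, and their change was not tested. Their mean Syngr1 level was 250 CPM in Synpr-high and 306 CPM in Synpr-low cells. The same means were 203 and 327 CPM for LEC and 213 and 331 CPM for RSC. For Syngr3 the means were 832 and 661 CPM (unlabeled), 820 and 453 CPM (LEC) and 812 and 520 CPM (RSC). Of the 170 unlabeled Synpr-low cells, 71 were in Cluster 3.

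RSC-labeled and LEC-labeled cells differed in Syngr3 when the Synpr classes were not separated. Syngr3 had 830, 721 and 788 CPM in RSC-labeled and 606, 520 and 503 CPM in LEC-labeled cells of mice 1, 2 and 3, with no overlap and a log2 difference of 0.52 (SE 0.11, adjusted p = 0.0211 by edgeR). The adjusted p was 0.108 without mouse 2 and 0.270 without mouse 3. Syngr1 had 243.5, 210.0 and 223 CPM in RSC-labeled and 336, 292 and 267 CPM in LEC-labeled cells, also without overlap. Its log2 difference of -0.40 (SE 0.11) had an adjusted p of 0.0724 by edgeR's quasi-likelihood test and of 0.0169 by DESeq2. Syp and Sypl had log2 differences of 0.14 (95% interval -0.25 to 0.53) and 0.19 (-0.21 to 0.60). The summed level of Mbp, Mog and Mobp was 340.4, 35.8 and 38.6 CPM in the RSC-labeled and 180.3, 131 and 104 CPM in the LEC-labeled cells of mice 1, 2 and 3, and its part in these differences was not tested. In plate 12, where both labels were processed together, the RSC-labeled cells had 214 CPM of Syngr1 and 643 CPM of Syngr3, and the LEC-labeled cells had 266 and 525 CPM.

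Within a Synpr class, no member passed the threshold between the labels. Among Synpr-high cells the log2 difference, RSC against LEC, was 0.07 for Syngr1 (95% interval -0.27 to 0.41) and -0.02 for Syngr3 (-0.29 to 0.26), and 0 of 13212 genes were called by edgeR's quasi-likelihood test (0.0%), with 691 genes at an unadjusted p under 0.05 and 13 genes called by DESeq2. Among Synpr-low cells it was 0.02 for Syngr1 (-0.32 to 0.36), 0.20 for Syngr3 (-0.08 to 0.48), 0.39 for Syp (-0.04 to 0.83) and 0.58 for Sypl (-0.18 to 1.34), and 71 genes were called (0.537%). Of these 71 genes 31 were higher (0.235%) and 40 lower (0.303%) in RSC-labeled cells, and with DESeq2's size factors in edgeR 42 were higher and 33 lower.

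**Figure D4:**
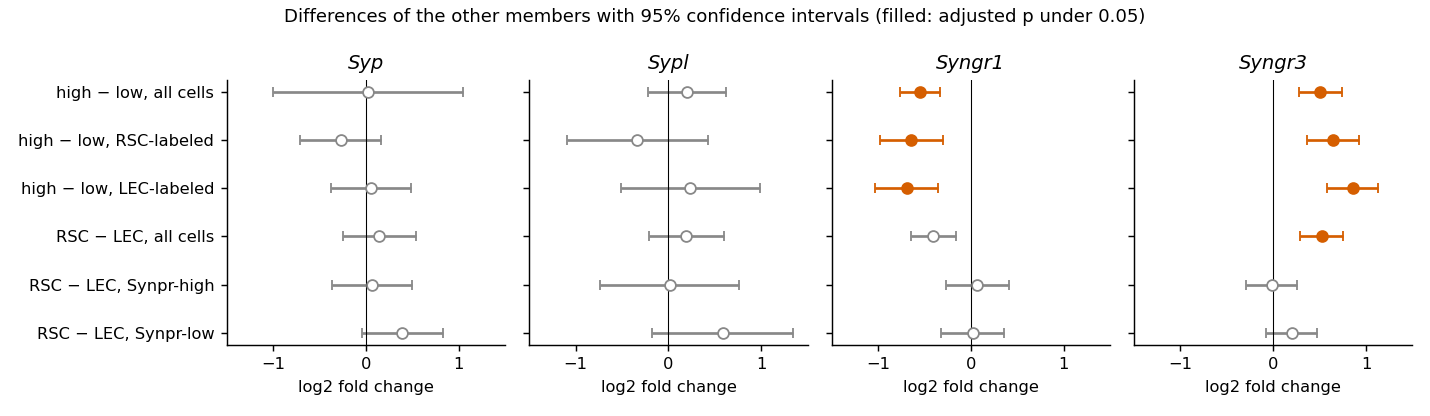
Log2 fold change of Syp, Sypl, Syngr1 and Syngr3 with 95% confidence intervals in 6 comparisons, filled where the adjusted p was under 0.05 in edgeR's quasi-likelihood test. The intervals of Syngr1 and Syngr3 lie on opposite sides of 0 in each comparison of Synpr-high with Synpr-low cells and include 0 in both comparisons of labels within a class.

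The levels by cluster put the 2 mostly Synpr-low clusters, 2 and 3, at different places for Syngr3. In Cluster 1, Syngr3 was at 756, 858, 793 and 786 CPM in the blindly sampled mouse and projection mice 1, 2 and 3. Its Cluster 2 levels were 521, 489, 523 and 471 CPM, and those of Cluster 3 were 900.4, 704, 1019 and 709 CPM. Cluster 2 was thus below both other clusters in every mouse, and Clusters 1 and 3 overlapped. At a finer clustering resolution of 0.2, Cluster 3 was split into 85 and 29 cells, and the larger of the 2 kept 9 of the 32 Cluster 3 cells of the blindly sampled mouse. In those 9 cells Syngr3 was at 421 CPM, below Cluster 2 of that mouse at 523 CPM. With the cells of Cluster 3 left out, the log2 difference of Syngr3 between Synpr-high and Synpr-low cells was 0.67 (SE 0.08, adjusted p = 0.000705 by edgeR). For Syngr1, the levels of the same mice were 216, 220.3, 226 and 210.0 CPM (Cluster 1), 294, 354, 298 and 277 CPM (Cluster 2) and 393, 338, 329 and 387 CPM (Cluster 3). Cluster 1 had the lowest Syngr1 level in every mouse, and Clusters 2 and 3 overlapped. Without Cluster 3 its log2 difference between the classes was -0.51 (SE 0.10, adjusted p = 0.0123 by the same test).

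The mean Synpr level was 1773 ± 217 CPM for Cluster 1, 17.2 ± 11.8 CPM for Cluster 2 and 16.7 ± 13.8 CPM for Cluster 3 (SD, n = 4 mice). The Syp level was 187 ± 90.3, 181 ± 83.2 and 191 ± 83.7 CPM. Sypl was at 59.0 ± 10.4, 55.5 ± 14.9 and 38.2 ± 12.5 CPM, and its Cluster 3 level overlapped the others. The Synpr levels of Clusters 2 and 3 rested mostly on few cells. In Cluster 2, 17 Synpr-high cells held 619 Synpr counts and 445 Synpr-low cells held 237. In Cluster 3, 2 Synpr-high cells held 156 and 112 Synpr-low cells held 63. The Synpr-low cells of Clusters 2 and 3 had 4.10 and 5.85 CPM of Synpr in sum over all mice, with a median of 0 per cell. These levels by cluster are a description without a test.

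**Figure D5:**
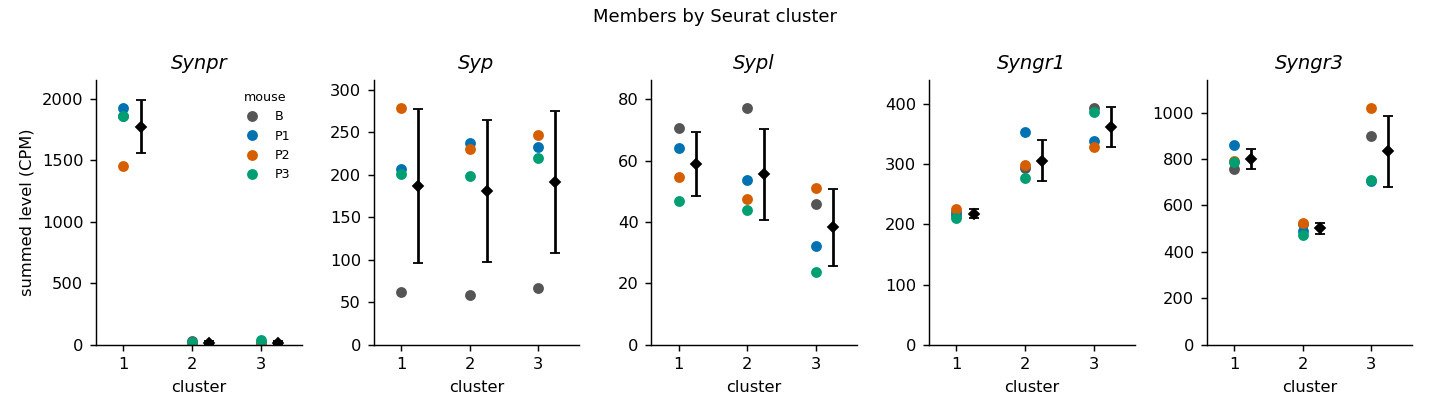
Summed level (CPM) of the 5 members by cluster, with 1 point for each mouse and black diamonds for the mean ± SD over 4 mice. Synpr is high in Cluster 1, Syngr3 is low in Cluster 2 (471 to 523 CPM), Syngr1 is low in Cluster 1 (210.0 to 226 CPM), and the points of Syp and Sypl overlap between clusters.

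The genes whose levels followed Synpr most closely over cells were named by the mean, over the 4 mice, of the Pearson correlation of log2(CPM + 1) across the kept cells of a mouse, among 8926 genes. The 5 highest were Gfra1, a receptor of the glial cell line-derived neurotrophic factor family, at 0.83, the copines Cpne9 at 0.81 and Cpne4 at 0.80, the nuclear receptor Nr2f2 at 0.78 and the collagen Col11a1 at 0.77. The 3 lowest were Mpped1 at -0.83, Fam163b at -0.72 and the calmodulin-binding Pcp4 at -0.71. These 8 genes were picked by the mean over the same 4 mice, so their sign within a mouse is no separate check. All are correlations over the cells of the 3 clusters together, and Gfra1 was also among the markers that numbered the clusters. The other members followed no gene so closely. The highest mean correlations were 0.45 with the kinesin Kif5c for Syngr3, 0.36 with the proton pump subunit Atp6v0e2 for Syp, 0.34 with the prion protein gene Prnp for Syngr1 and 0.19 with Kcnv1 for Sypl. For Syp, the 3 highest genes (Atp6v0e2, Rnasek and Sv2a) had correlations of -0.02 to 0.01 in the blindly sampled mouse, where its counts were few. Synpr itself had mean correlations of 0.28 with Syngr3, 0.09 with Sypl, 0.04 with Syp and -0.19 with Syngr1 over all kept cells.

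The synaptic vesicle list, 32 genes that stand for the vesicle membrane and its fusion machinery, was compared between the Synpr classes beside the members. Of the 31 that could be tested, 2 were higher and 4 lower in Synpr-high cells, against 8.75% of all genes in both directions, and with the mouse as a block the counts were 5 and 8. Without projection mouse 1, 1 was higher and 2 were lower. The median log2 difference of the list was -0.07. Syt1, the calcium sensor of fast release, was higher with a log2 difference of 0.58, and Slc17a6, the second vesicular glutamate transporter, was higher with 5.73 with 65.9 to 99.1 CPM in the Synpr-high cells of a mouse and 0 to 3.12 CPM in the Synpr-low cells, where the blindly sampled mouse had no count. The vesicular zinc transporter Slc30a3 (-3.31), synapsin 2 (Syn2, -1.14), complexin 1 (Cplx1, -0.73) and the proton pump subunit Atp6v1b2 (-0.37) were lower. Of these, Slc17a6, Slc30a3, Syn2 and Syt1 passed the threshold between RSC-labeled and LEC-labeled cells, in the same directions. In that comparison 3.95% of all genes were called, and without 1 mouse 0 to 2 genes of the list passed. Since most RSC-labeled and few LEC-labeled cells were Synpr-high, it is not independent of the comparison of the classes. Slc17a6 and Slc30a3 were also among the markers that numbered the clusters.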

How the data were processed

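Single-cell RNA-seq of 4 mice in 13 plates was analysed. The authors assigned reads to barcodes and UMIs, aligned them with STAR and deposited raw counts per gene and cell in 2 tables, 1 of the blindly sampled and 1 of the projection mice. Since the study's methods describe depth in reads, counts are taken as reads. The submitters' processing notes name the build NCBIM37 and Seurat, and the annotation and the use of strand are not given in the sources used here. Promoter windows come from RefSeq on GRCm38.p6 and exon overlaps from GENCODE M21, neither of which is the build of the counts. ERCC spike-ins were left out. Genes listed in 1 table were set to 0 in the other. No doublet caller was run, since cells were picked singly. Of the oligodendrocyte list, 1 marker is not reported here, and the list is given by its other 3 genes.

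Counts were summed per mouse and group (at least 5 cells) and tested with edgeR 4.0.16 (TMM, filterByExpr, quasi-likelihood test, Benjamini-Hochberg adjustment over all genes tested, threshold 0.05). DESeq2 1.42.0 was the alternative tool. RSC, LEC and unlabeled sums, or the 6 groups of label and Synpr class, were fitted together. Clusters were made in Seurat 5.3.0 (2000 variable features, 30 components, resolution 0.1). Shares have exact 95% Clopper-Pearson intervals from scipy 1.17.1. Tests were tried on simulated data. Named were the 5 members, Sypl2, Syngr2 and Syngr4, up to 8 genes of the vesicle list by size, and for Synpr the 5 highest and 3 lowest mean correlations, for each other member the 3 highest. The members, lists and limits were chosen with earlier results of these data known.

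Groups were paired by animal. Between sums of the same mouse, the median correlation of the deviations from the group means (log2 CPM) was 0.177 for the Synpr classes (4 pairs, 0.15 to 0.514), against -0.0965 for other pairs, 0.0358 for the labels (9 pairs, -0.0197 to 0.0879) and 0.0245 for label and class (45 pairs). The reported fits leave the mouse out, and fits with the mouse as a block were run beside them.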

Additional observations from a re-analysis of the deposited data

Results flagged for a closer look

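Levels of the members in the 4 mice were checked in 25 groups (5 genes in 2 Synpr classes and 3 clusters) for a mouse that stood apart by Dixon's ratio of the gap to the range, against its 95% limit, which chance passes in about 1 of 20 groups. Syp in the Synpr-low cells of the blindly sampled mouse stood apart with a ratio of 0.831, at 62.4 CPM against 203.5 to 232 CPM in the projection mice. Syp in Cluster 3 of the same mouse had a ratio of 0.845, at 67.0 CPM against 219 to 247 CPM. Synpr in Cluster 1 of projection mouse 2 had a ratio of 0.857, at 1452 CPM against 1856 to 1924 CPM. The part of flow cell or read length in the level of Syp was not tested, since they cannot be told apart from the mouse.

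Of the cells left out of every comparison for lack of a Slc17a7 count, 13 had 100 CPM or more of Synpr from 3 counts or more. Of these, 7 were from the blindly sampled mouse, with 1726 to 3121 CPM of Synpr, 4 to 38 counts of the core marker Gnb4 and no count of Gad1 or Gad2. The 4 cells with both Gad1 and Gad2 counts were from the projection mice and had 372 to 782 CPM of Synpr.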

How the results depend on the processing

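The direction of the difference in Synpr-high share between RSC-labeled and LEC-labeled cells held under each alternative (67.2 to 69.3 percentage points, and 62.2 to 72.2 without 1 mouse). With 3 mice or fewer per label no p under 0.05 was possible. Syngr1 and Syngr3 kept their directions and passed the threshold between the Synpr classes under every alternative except leaving out a mouse, including Synpr limits of 30 and 300 CPM, thinning, cells of at least 10000 counts and genes of both tables, the last 2, the exclusions of cells with Gad1 or Gad2 counts and of cells high in Mbp, Mog and Mobp (Syngr3 0.42, adjusted p = 0.0443, and 1035 genes called), and the fit without plate 12 being chosen after seeing the data. Counts of called genes moved more. The mouse as a replicate block gave 1993 genes between the Synpr classes and changed no call of a member. DESeq2 gave 1145 genes for RSC against LEC, 854 and 771 for the classes within RSC and LEC, 13 and 401 for the labels within Synpr-high and Synpr-low cells, and 110 for the difference of differences. No filter on low counts gave 4, 119 and 24 genes for the last 3, and a Synpr limit of 300 CPM gave 514 within LEC, 47 between labels in Synpr-low cells and 16 for the difference. Leaving out 1 mouse gave 59 to 391 genes for RSC against LEC, 524 (without mouse 3) to 1517 (without the blindly sampled mouse) between the classes, 104 to 227 and 112 to 182 within RSC and LEC, 0 to 3 and 6 to 18 for the labels within Synpr-high and Synpr-low cells, and 0 to 2 for the difference, with fewer mice fitted.

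Signs turned only for log2 differences that were not called. Between the Synpr classes, Syp was -0.0209 after thinning and -0.0902 to 0.0969 without 1 mouse. Without 1 mouse, Syp was also -0.0267 to 0.244 between the labels and -0.0753 to 0.111 within LEC, and Sypl was -0.546 to 0.0717 within RSC, -0.161 to 0.575 within LEC and -1.001 to 0.233 for the difference of differences. Between labels in Synpr-high cells, Sypl was -0.0068 with DESeq2's size factors, -0.0071 with DESeq2, -0.0682 with a limit of 300 CPM and -0.201 to 0.277 without 1 mouse, and Syngr3 was 0.0136 with no filter and -0.067 to 0.0273 without 1 mouse. Syngr1 between labels in Synpr-low cells was -0.0362 with no filter and -0.185 to 0.126 without 1 mouse, and for the difference of differences it was -0.0463 with DESeq2's size factors, -0.0456 with DESeq2 and -0.0656 to 0.20 without 1 mouse. The cause of these changes was not tested. Depth limits the blindly sampled mouse most, where 67 of 238 cells had under 20000 counts, and the small groups against their label held 8 to 20 cells per mouse.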

Other observations

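The 3 remaining family genes were close to undetected in these neurons. Syngr2 had a count in 20 of 1011 kept cells (274 counts in all), Syngr4 in 6 (21 counts) and Sypl2 in 4 (21 counts), and Sypl2 and Syngr4 are listed only in the table of the projection mice. In neither Synpr class was a further member of the family therefore measured at a level that could be compared.

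The 17 Synpr-high cells of Cluster 2 had an intermediate Synpr level. Their summed level was 346 CPM of Synpr, against 1791 CPM in the 432 Synpr-high cells of Cluster 1. The same 17 cells had 230 CPM of Syngr1 and 670 CPM of Syngr3, and the 445 Synpr-low cells of Cluster 2 had 314 and 501 CPM. Per cell, the median of Syngr3 was 435 CPM in the 17 cells and 438 CPM in the 445 cells, so the higher sum rested on some of the cells. These sums are over all 4 mice, without a test.

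A bimodality coefficient computed from skewness and kurtosis of log2(CPM + 1) in each mouse did not single out Synpr. Its mean over the mice was 0.834 for Synpr, rank 3374 of 8926 genes, 0.806 for Sypl, 0.765 for Syngr3, 0.637 for Syngr1 and 0.572 for Syp. The coefficient also rises where a gene is missing from many cells, as Sypl was, so the near-empty range between 30 and 300 CPM describes Synpr more directly.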
